A study of Canis lupus familiaris with 186 samples.

Results

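The 9 genes described here encode the core of the mTOR pathway, the target of rapamycin (sirolimus), and were followed across primary canine osteosarcoma (OS), a malignant bone tumor whose cells make bone matrix. They were taken by name, with no rule on their values but with earlier results of these data known. The genes are MTOR, RPTOR, RICTOR, TSC1, TSC2, RHEB, AKT1, RPS6KB1 and EIF4EBP1, and each matched 1 of the 37952 genes in the count table. All 9 were among the 13422 genes that passed a filter on low counts, so no member was lost. RNA from 186 tumors, 1 per pet dog, had been sequenced: 93 dogs came from the clinical trial labelled COTC021 and 93 from the trial labelled COTC022. Every tumor carries the same label, primary osteosarcoma, and per the methods of the study was taken from dogs of various ages, breeds and sexes before adjuvant treatment began. The individual ages are not in the labels. The trials gave adjuvant carboplatin with or without rapamycin after surgery, and the labels do not say which dog received which. No tumor in these data had therefore been exposed to rapamycin, and the treatment arms were not compared.

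mTOR is a protein kinase that couples growth signals and nutrients to protein synthesis. It works in 2 assemblies: mTORC1, held by RPTOR, drives translation and is blocked acutely by rapamycin bound to FKBP1A, whereas mTORC2, held by RICTOR, phosphorylates AKT1. AKT1 inactivates the complex of TSC1 and TSC2, which otherwise switches off the small GTPase RHEB, the direct activator of mTORC1. mTORC1 then phosphorylates the kinase encoded by RPS6KB1 and the translational repressor encoded by EIF4EBP1. This signaling runs through phosphorylation, which RNA does not report, so the values below are transcript levels and not pathway activity. PI3K, AKT and mTOR signaling has long been studied in bone tumors and in osteoblast growth.

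Sequencing depth ranged from 6587631 to 27420857 counts per library, with a median of 10797162. In 50 libraries the name in the table header repeats the separator before the word tumor (the repeated-separator libraries). They were deeper (15803906 to 23214323 counts) than most of the other 136 (median 9851681), and 32 of the 50 came from COTC022. The methods of the study took the trial as the batch, and it is a covariate of the fits here. These names were taken as a further possible mark of one. For the core mTOR pathway genes, calls that were lost within a trial or a set of libraries stand beside each slope. The slopes of the other pathway genes are from the fit over all dogs. Whether their calls hold within a trial or a set of libraries is not reported here. The summed level of 10 osteoblast markers lay between 1342 and 202519 CPM (counts scaled to the library total) over the tumors. Markers of skeletal muscle and cartilage ranged widely: the summed level of 12 skeletal muscle genes ran from 6.30 to 94868 CPM and that of 7 cartilage genes from 11.1 to 64759 CPM. Whether tumor cells or other tissue gave these transcripts was not tested. Because these are bulk samples, fewer cells of a type and less RNA per cell cannot be told apart.

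The genes of the kinase complexes were measured well above the detection limit in every dog. MTOR (gene ID 478232, chr2:84293674-84413764 of the canine assembly UU_Cfam_GSD_1.0), the catalytic subunit of both complexes, had a lowest, median and highest level of 45.2, 101.7 and 281 CPM in COTC021 and of 36.5, 103.4 and 277 CPM in COTC022. RPTOR (gene ID 608378, chr9:1852046-2185237), the substrate-recruiting subunit of mTORC1, reached 18.3, 38.2 and 63.1 CPM in COTC021 and 12.6, 35.2 and 56.4 CPM in COTC022. RICTOR (gene ID 479356, chr4:70812437-70929811), the defining subunit of mTORC2, reached 10.6, 32.0 and 78.1 CPM in COTC021 and 12.8, 30.9 and 84.3 CPM in COTC022. For all of them the ranges of the trials overlapped almost entirely, as the plot of levels by trial shows.

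The inhibitory complex and its substrate had comparably narrow ranges. TSC1 (gene ID 480688, chr9:51486514-51537117), which stabilizes its partner, had a lowest, median and highest level of 19.1, 37.8 and 76.9 CPM in COTC021 and of 11.2, 40.7 and 96.7 CPM in COTC022. TSC2 (gene ID 479883, chr6:39309683-39342799), the GTPase-activating subunit, reached 31.2, 51.9 and 137.7 CPM in COTC021 and 23.4, 56.6 and 105.0 CPM in COTC022. RHEB (gene ID 475545, chr16:16166245-16209781) reached 34.7, 78.3 and 146.0 CPM in COTC021 and 27.9, 80.8 and 215 CPM in COTC022. The lowest raw value of any of the 9 genes in any dog was 99 counts, for TSC1, so no level rested on a handful of reads.

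Upstream and downstream of the complexes, 2 genes had long upper tails. AKT1 (gene ID 490878, chr8:72717834-72737716) had a lowest, median and highest level of 157.5, 273 and 1735 CPM in COTC021 and of 91.9, 253 and 1285 CPM in COTC022. EIF4EBP1 (gene ID 475590, chr16:28127776-28148089) reached 12.1, 35.6 and 212 CPM in COTC021 and 15.3, 37.9 and 300.0 CPM in COTC022. RPS6KB1 (gene ID 480580, chr9:34353112-34555827) reached 16.4, 32.2 and 89.5 CPM in COTC021 and 9.55, 32.1 and 57.5 CPM in COTC022. For AKT1, the 3 highest dogs had 1735, 1285 and 1120 CPM, while 90% of dogs were at or below 410 CPM. For EIF4EBP1 the 3 highest dogs had 300.0, 212 and 140.2 CPM, against a 90th percentile of 63.8 CPM. The dog with the highest AKT1, dog 0309 of COTC021, also had the highest RPTOR and the highest RPS6KB1 in CPM. CPM takes no account of transcript length, so the 9 genes are not ranked against each other by level.

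**Figure D1:**
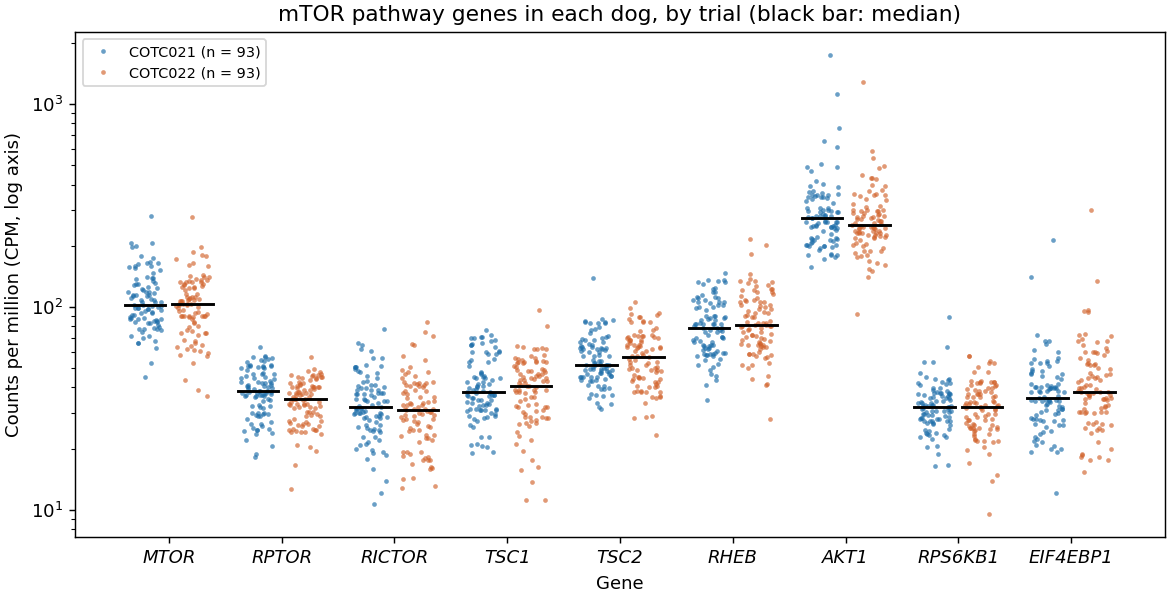
Level of each mTOR pathway gene in each of the 186 dogs in CPM (y axis, log scale), with dogs of COTC021 in blue, dogs of COTC022 in orange and the median of each trial as a black bar. The trials overlap for all 9 genes, and single dogs stand far above the rest for AKT1 (up to 1735 CPM) and EIF4EBP1 (up to 300.0 CPM).

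All of the 9 genes except EIF4EBP1 varied less between tumors than the median of the genes tested. The standard deviation (SD) of the normalized log2 level was 0.34 for RPTOR, lower than that of all but 1.47% of the genes tested. It was 0.39 for TSC2 and 0.39 for RPS6KB1, both at about the 7.4 percentile, and 0.44 for MTOR (percentile 17.7). RHEB had an SD of 0.49 (percentile 27.2), TSC1 0.51 (32.6), RICTOR 0.51 (32.9) and AKT1 0.52 (35.2). Only EIF4EBP1, with an SD of 0.67, lay above the median of all genes, 0.62. In mean level the 9 genes lay between the 58.3 percentile (RICTOR) and the 96.8 percentile (AKT1), and these ranks of the SD make no allowance for level. The ratio of the 90th to the 10th percentile of CPM ran from 1.89 for RPS6KB1 to 2.82 for EIF4EBP1. RICTOR was next with a ratio of 2.73. AKT1, despite its tail, had a ratio of 2.18.

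The first comparison asked whether dogs of the 2 trials differed at baseline. No gene of the mTOR pathway passed the test (limma-voom, Benjamini-Hochberg adjustment over all 13422 genes, adjusted p under 0.05). Across all genes, 0.0149% were called higher in COTC022 and 0% lower, the former being RAB24 and VPS9D1. With the library name as covariate limma-voom called 1 gene higher and 1 lower, so these genes were not both called higher in that fit. RPTOR, the only one of the 9 genes with an unadjusted p under 0.05, was lower in COTC022 by a log2 difference of -0.14 (SE 0.05, 95% interval -0.24 to -0.05), with an adjusted p of 0.27 by limma-voom. The other estimates ran from -0.10 for AKT1 to 0.14 for EIF4EBP1 (95% interval -0.05 to 0.33). edgeR called 129 genes of the whole table (89 higher, 40 lower) and DESeq2 71 (41 higher, 30 lower), none of them among the 9, with 2 of the 9 at an unadjusted p under 0.05 in each. Of 80 other genes of the pathway that could be tested, from lists of complex subunits, amino acid sensing, energy sensing, PI3K signaling and downstream effectors, limma-voom called 0 higher and 0 lower.

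The study grouped tumors by GS-1, a signature of immune genes. Here a GS-1 score was computed for each dog as the mean standardized level of 27 of its genes (C1QB, CD53, ITGAL and VSIG4 among them, which mark macrophages and other leukocytes), and the change of each gene per 1 SD of the score was fitted with the trial as covariate. MTOR, RPTOR and TSC2 fell as the score rose, and RHEB rose. The log2 slope was -0.11 for MTOR (SE 0.03, adjusted p = 0.00245), -0.08 for RPTOR (SE 0.02, adjusted p = 0.00268) and -0.09 for TSC2 (SE 0.03, adjusted p = 0.00418), all by limma-voom. For RHEB it was 0.12 (SE 0.03, adjusted p = 0.00275 by limma-voom). The other 5 genes did not pass, with estimates from -0.06 for AKT1 (95% interval -0.14 to 0.01) to 0.06 for RICTOR (95% interval -0.01 to 0.14). In these tumors 22.3% of all genes rose with the score and 26.2% fell, so 1 of 9 rising and 3 of 9 falling is close to the share among all genes. The called slopes correspond to levels of 0.93-fold for MTOR to 1.09-fold for RHEB per SD of the score.

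Markers of proliferation and of several cell types moved with the GS-1 score. The 4 called slopes were smaller in a fit with the other scores and the library name as covariates. Cartilage, endothelial, osteoclast and fat genes were not covariates of that fit, and the cause of the smaller slopes was not tested. With rising GS-1, 15 of 16 proliferation genes, 7 of 10 osteoblast genes and 6 of 7 cartilage genes fell, while 1 osteoblast gene, 7 of 8 endothelial genes, 2 of 7 osteoclast genes and FABP4, the only 1 of 5 fat genes that could be tested, rose. The score correlated with the osteoblast score at r = -0.44 and with the proliferation score at r = -0.31 over the 186 dogs. With the proliferation, osteoblast and skeletal muscle scores and the library name set as further covariates, limma-voom called none of the 9 genes, and 0 of them had an unadjusted p under 0.05 (no other tool was run with these covariates). The slope of MTOR was then -0.06 (adjusted p = 0.20), that of RPTOR -0.03 (adjusted p = 0.40), that of TSC2 -0.05 (adjusted p = 0.20) and that of RHEB 0.04 (adjusted p = 0.42). Within the 50 repeated-separator libraries none of the 9 was called (adjusted p = 0.21 to 0.36 for these 4), and 1 had an unadjusted p under 0.05. The signs of the 4 slopes were the same within both trials and both sets of libraries, but within COTC021 MTOR (adjusted p = 0.0512), RPTOR (adjusted p = 0.149) and RHEB (adjusted p = 0.199) did not pass, and within COTC022 TSC2 did not (adjusted p = 0.0951).

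The slopes on GS-1 were also compared between the trials and between the sets of libraries. limma-voom called 0% of all genes with a higher and 0% with a lower slope in COTC022 than in COTC021, and 0% in either direction between the repeated-separator libraries and the others. None of the 9 genes had an unadjusted p under 0.05 in either interaction test, against 154 genes with a higher and 220 with a lower slope by trial and 480 in each direction by library name. The closest was TSC1 between the sets of libraries, with a difference in slope of 0.15 (SE 0.08, adjusted p = 0.70).

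Among the other genes of the pathway, 22 of 80 rose with the GS-1 score and 15 fell, where 22.3% of all genes rose and 26.2% fell. The 4 with the largest slopes all rose. PIK3CD, the leukocyte-enriched catalytic subunit of PI3K, rose by 0.69 per SD (SE 0.04, adjusted p = 2.2e-41). IGF1, a ligand that activates PI3K, rose by 0.46 (SE 0.11, adjusted p = 0.000177), SESN2, a leucine sensor upstream of mTORC1, by 0.38 (SE 0.04, adjusted p = 5.54e-18) and PRR5, an mTORC2 subunit, by 0.36 (SE 0.10, adjusted p = 0.00243). All 4 slopes exceeded those of the 9 core genes. By group, 9 of 26 genes of amino acid sensing rose and 4 fell, 5 of 17 genes of PI3K signaling rose and 5 fell, and 5 of 22 downstream effectors rose and 5 fell. The median slope over the 80 genes was 0.00, against -0.02 over all genes tested.

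With the proliferation score, the mean standardized level of 16 cell cycle genes such as MKI67 and TOP2A, 3 of the 9 genes rose and 1 fell. The log2 slope was 0.08 for MTOR (SE 0.03, adjusted p = 0.0315), 0.08 for RPTOR (SE 0.02, adjusted p = 0.00208) and 0.12 for AKT1 (SE 0.04, adjusted p = 0.00471). RHEB fell by 0.13 per SD (SE 0.03, adjusted p = 0.00108). The adjusted p-values are from limma-voom over all genes, of which 24.8% rose and 29.9% fell with this score, so the counts are again near the share of all genes. No called slope changed sign in any alternative fit. MTOR did not pass within either trial alone (adjusted p = 0.145 and 0.20) or within either set of libraries (adjusted p = 0.644 in the repeated-separator libraries and 0.0646 in the others). AKT1 did not pass in COTC021 (adjusted p = 0.0591), COTC022 (adjusted p = 0.0801) or the repeated-separator libraries (adjusted p = 0.489). RPTOR did not in COTC021 (adjusted p = 0.0706) and the repeated-separator libraries (adjusted p = 0.153), nor RHEB in COTC022 (adjusted p = 0.0807).

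Of the 80 other pathway genes, 13 rose and 30 fell with proliferation, where 24.8% of all genes rose and 29.9% fell. IGF2, a growth factor of the insulin family, fell by 0.70 per SD (SE 0.15, adjusted p = 3.52e-05), IGF1 by 0.65 (SE 0.12, adjusted p = 8.53e-07) and HIF1A, whose translation mTORC1 promotes, by 0.30 (SE 0.05, adjusted p = 5.61e-08). Amino acid sensing contributed 4 rising and 10 falling genes of 26, and downstream effectors 5 and 10 of 22. The median slope of the 80 genes was -0.05, against -0.01 over all genes. With rising proliferation 26 of 27 GS-1 genes, 8 of 8 endothelial genes and 7 of 12 skeletal muscle genes also fell. In the fit with the GS-1, osteoblast and skeletal muscle scores and the library name as covariates, MTOR had a slope of 0.05 (adjusted p = 0.22 by limma-voom). RPTOR, AKT1 and RHEB were still called in it. No fit held an endothelial score, so the part of the endothelial genes was not tested.

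With the osteoblast score, built from 10 genes including RUNX2, SP7, ALPL and COL1A1, 3 of the 9 genes rose and 2 fell. MTOR rose by 0.12 per SD (SE 0.03, adjusted p = 0.00126), RPTOR by 0.09 (SE 0.02, adjusted p = 0.000687) and TSC2 by 0.14 (SE 0.03, adjusted p = 5.15e-06). RHEB fell by 0.13 (SE 0.03, adjusted p = 0.0014) and RICTOR fell by 0.09 (SE 0.04, adjusted p = 0.0403), all by limma-voom. Among all genes 18.3% rose and 19.6% fell, against 3 and 2 of these 9. The slope of TSC2 was the one with the smallest adjusted p of any of the 9 genes on any score. All 5 calls were lost in the repeated-separator libraries, with an adjusted p of 0.181 for MTOR, 0.0512 for RPTOR, 0.206 for TSC2, 0.154 for RHEB and 0.126 for RICTOR. Within COTC021 RPTOR (adjusted p = 0.171), TSC2 (adjusted p = 0.0511) and RHEB (adjusted p = 0.0615) did not pass, and with the other scores as covariates MTOR did not (adjusted p = 0.0616). RICTOR was lost most often: it also did not pass with upper quartile normalization (adjusted p = 0.066), within either trial (adjusted p = 0.411 and 0.0952), in the other libraries (adjusted p = 0.251), with the other scores as covariates (adjusted p = 0.132), or without dogs 1709 and 1904, the 2 farthest from the median of the score (adjusted p = 0.17). Dog 1709 of COTC022 had both the highest GS-1 and the lowest osteoblast score.

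With the osteoblast score, 15 of the 80 other pathway genes rose and 18 fell, near the 18.3% and 19.6% of all genes. Their median slope was -0.02, against -0.00 over all genes. IGF2 rose by 0.75 (SE 0.20, adjusted p = 0.00167). PRR5 fell by 0.41 (SE 0.11, adjusted p = 0.000882), INPP4B, a lipid phosphatase that dampens PI3K signaling, fell by 0.37 (SE 0.07, adjusted p = 6.36e-06) and IGF1 fell by 0.36 (SE 0.13, adjusted p = 0.02). Transcripts of bone-resorbing cells moved with the score as well: 7 of 7 osteoclast genes rose with it and 24 of 27 GS-1 genes fell.

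Skeletal muscle, the tissue next to many of these tumors, was followed with a score over 12 genes such as ACTA1, CKM and TTN. EIF4EBP1 was the only one of the 9 genes called, with a log2 slope of 0.15 (SE 0.05, 95% interval 0.06 to 0.24, adjusted p = 0.0188 by limma-voom). Among all genes 6.32% rose and 2.15% fell, a split of calls that was 74.6% higher here, 57.8% with edgeR and 50.6% with DESeq2. The slope of RPS6KB1 was 0.07 with an adjusted p of 0.0831, and passed (adjusted p = 0.0332) without the dogs with the highest AKT1 and EIF4EBP1, an alternative chosen after the data were seen. The slope of EIF4EBP1 was 0.15 with an adjusted p of 0.058 without dogs 1902 and 0715, which had the most muscle signal. It did not pass within COTC021 (adjusted p = 0.654) or COTC022 (adjusted p = 0.104), and in the repeated-separator libraries it was 0.07 (adjusted p = 0.692). Of the other pathway genes 7 of 80 rose and 0 fell with muscle. With the score 4 of 8 endothelial and 3 of 27 GS-1 genes also rose and 5 of 16 proliferation genes fell. The pathway genes with the largest slopes were IGF1 with 0.39 (SE 0.11, adjusted p = 0.00764), INPP4B with 0.22 (SE 0.07, adjusted p = 0.0264), SGK1, a kinase activated by mTORC2, with 0.22 (SE 0.05, adjusted p = 0.000248) and EIF4EBP3, a paralog of EIF4EBP1, with 0.21 (SE 0.05, adjusted p = 0.00255).

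**Figure D2:**
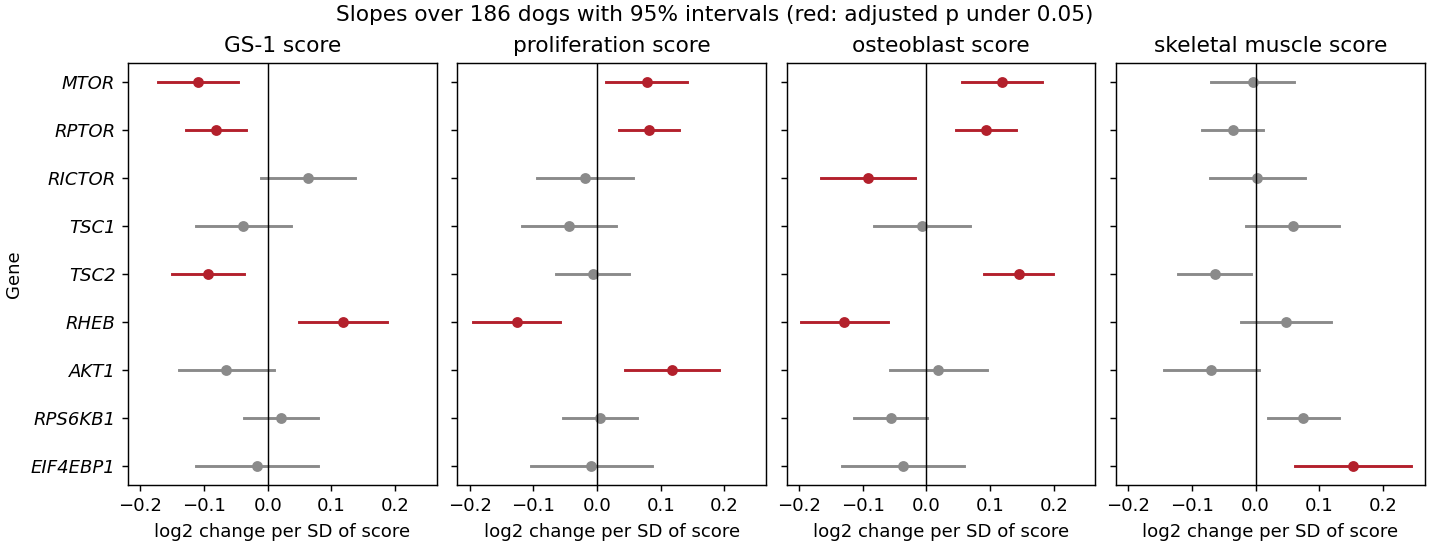
Log2 change of each mTOR pathway gene per SD of the GS-1, proliferation, osteoblast and skeletal muscle scores over 186 dogs (x axis), with 95% intervals, in red where the adjusted p was under 0.05 over all genes. RPTOR and MTOR move against the GS-1 score and with the proliferation and osteoblast scores, RHEB moves the opposite way, and all slopes lie between -0.13 and 0.15.

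The sets of libraries differed for 1 of the 9 genes. MTOR had a lowest, median and highest level of 62.1, 119.9 and 198.2 CPM in the 50 repeated-separator libraries and of 36.5, 98.7 and 281 CPM in the other 136, ranges that overlap widely. With the trial as covariate its log2 difference was 0.28 (SE 0.07, adjusted p = 0.0113 by limma-voom), where 1.92% of all genes were higher and 2.35% lower in the repeated-separator libraries. The estimate was 0.28 within COTC021 (adjusted p = 0.19) and 0.28 within COTC022 (adjusted p = 0.16). TSC2 followed with 0.19 (SE 0.06, adjusted p = 0.0653). Whether the libraries or the dogs behind them account for this cannot be told apart.

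The 9 genes were next compared with each other across dogs. Of the 36 pairs, 12 were positively and 9 negatively correlated (permutation test with 100000 resamples, two-sided, adjusted over the 36 pairs, adjusted p under 0.05). The weakest called pair had an absolute r of 0.17, and 14.6% of all pairs of genes tested had an r at least as high in the positive direction and 14.7% in the negative direction. The median r over the 36 pairs was 0.01 and over all pairs of genes -0.00. The pairs formed a pattern that the heat map of correlations shows: MTOR, RPTOR, TSC1 and TSC2 rose and fell together, RHEB and EIF4EBP1 did so with each other, and the first set ran opposite to RHEB.

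Within the first set, activator and inhibitor genes were positively correlated. MTOR and RPTOR, partners in mTORC1, had an r of 0.45 (rho 0.43, permutation p = 1e-05, adjusted p = 3.6e-05), and 0.42 without the 2 dogs farthest from the median of MTOR. This p is the smallest that the resamples can give. MTOR and TSC2 had an r of 0.38 (rho 0.36) and MTOR and TSC1 an r of 0.38 (rho 0.34), with an adjusted permutation p of 3.6e-05 for each r. TSC1 and TSC2, which form 1 complex, had a lower r of 0.22 (rho 0.21, adjusted permutation p = 0.00478). RICTOR was correlated with TSC1 (r = 0.33) and with MTOR (r = 0.19, adjusted permutation p = 0.0213). Between RICTOR and RPTOR, the subunits that tell the mTOR complexes apart, r was -0.04 (adjusted permutation p = 0.67). With CPM by library total in place of TMM-normalized values that r was 0.18 (adjusted permutation p = 0.0226), so its direction depends on the scaling.

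RHEB, the activator of mTORC1, was negatively correlated with both the kinase genes and its inhibitors. Its r was -0.34 with MTOR (rho -0.28), -0.34 with RPTOR (rho -0.32), -0.35 with TSC1 (rho -0.32) and -0.25 with TSC2 (rho -0.20). The adjusted permutation p was 3.6e-05 for the first 3 and 0.00144 for TSC2. Without the 2 dogs farthest from the median of the first gene, r was -0.32 with MTOR, -0.31 with RPTOR, -0.31 with TSC1 and -0.30 with TSC2. Only 1.41% of all pairs of genes had an r as low as that of TSC1 and RHEB. EIF4EBP1 was likewise negatively correlated with MTOR (r = -0.22, adjusted permutation p = 0.00686), TSC1 (r = -0.24, adjusted permutation p = 0.00296) and TSC2 (r = -0.17, adjusted permutation p = 0.036).

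AKT1 and RPS6KB1 had fewer links to the rest. AKT1 was correlated with RPTOR (r = 0.20, rho 0.21, adjusted permutation p = 0.014) and negatively with RICTOR (r = -0.19, rho -0.25, adjusted permutation p = 0.0178), whose complex phosphorylates its product. With CPM by library total the latter r was -0.07 (adjusted permutation p = 0.409), which ends the call. RPS6KB1 was correlated most strongly with TSC1 (r = 0.49, rho 0.47, adjusted permutation p = 3.6e-05), a pair taken up below. It was also correlated with RICTOR (r = 0.32, rho 0.28, adjusted permutation p = 3.6e-05) and negatively with RHEB (r = -0.17, rho -0.11, adjusted permutation p = 0.0313). Without dogs 0309 and 2010, which had the highest AKT1 and EIF4EBP1, the pairs RPTOR and AKT1 (r = 0.15, adjusted permutation p = 0.089), TSC2 and EIF4EBP1 (r = -0.13, adjusted permutation p = 0.13) and RPS6KB1 and RHEB (r = -0.14, adjusted permutation p = 0.10) were no longer called. After regression on trial, library name and the 4 scores, RPTOR and AKT1 (r = 0.13, adjusted permutation p = 0.117) and TSC2 and EIF4EBP1 (r = -0.14, adjusted permutation p = 0.0816) did not pass, nor did RPS6KB1 and RHEB with CPM by library total (r = -0.12, adjusted permutation p = 0.122) or by rho (adjusted permutation p = 0.221). All 21 called pairs kept their sign within each trial, within each set of libraries and in each of the 5 alternative computations, and 17 of them were called in all 5.

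Of the 3 pairs with the highest r, 2 joined genes that lie on the same chromosome. TSC1 and RPS6KB1, both on chromosome 9 with starts 17.1 Mb apart, had the highest r, 0.49 (rho 0.47, adjusted permutation p = 3.6e-05), and 0.47 without the 2 dogs farthest from the median of TSC1. It was 0.39 in COTC021 and 0.57 in COTC022. EIF4EBP1 and RHEB, both on chromosome 16 with starts 12.0 Mb apart, had an r of 0.45 (rho 0.39, adjusted permutation p = 3.6e-05), and 0.40 without the 2 dogs farthest from the median of EIF4EBP1. It was 0.31 in COTC021 and 0.54 in COTC022. RPTOR lies at the other end of chromosome 9, and its r was 0.28 with TSC1, 49.6 Mb away, and 0.07 with RPS6KB1, 32.5 Mb away. The scatter plot of pairs gives the levels behind the strongest positive and the strongest negative correlations.

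**Figure D3:**
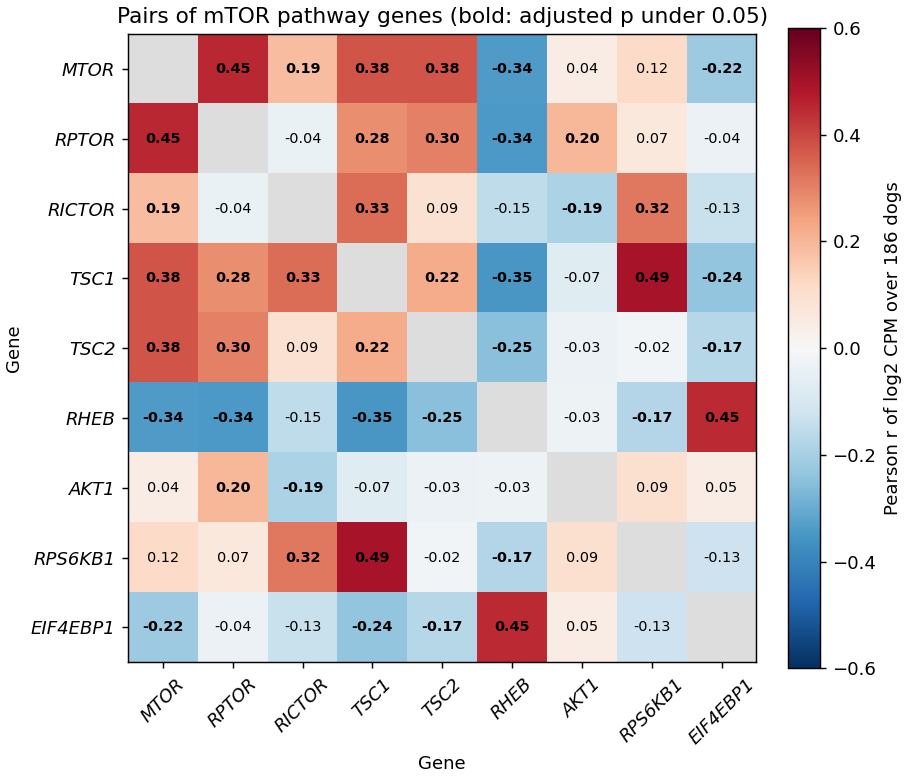
Pearson r of the normalized log2 level over 186 dogs for each of the 36 pairs of mTOR pathway genes (color and number), in bold where the adjusted permutation p was under 0.05. MTOR, RPTOR, TSC1 and TSC2 form a positive block, RHEB pairs with EIF4EBP1 (0.45), and RHEB is negative against all 4 genes of the block (-0.25 to -0.35).

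**Figure D4:**
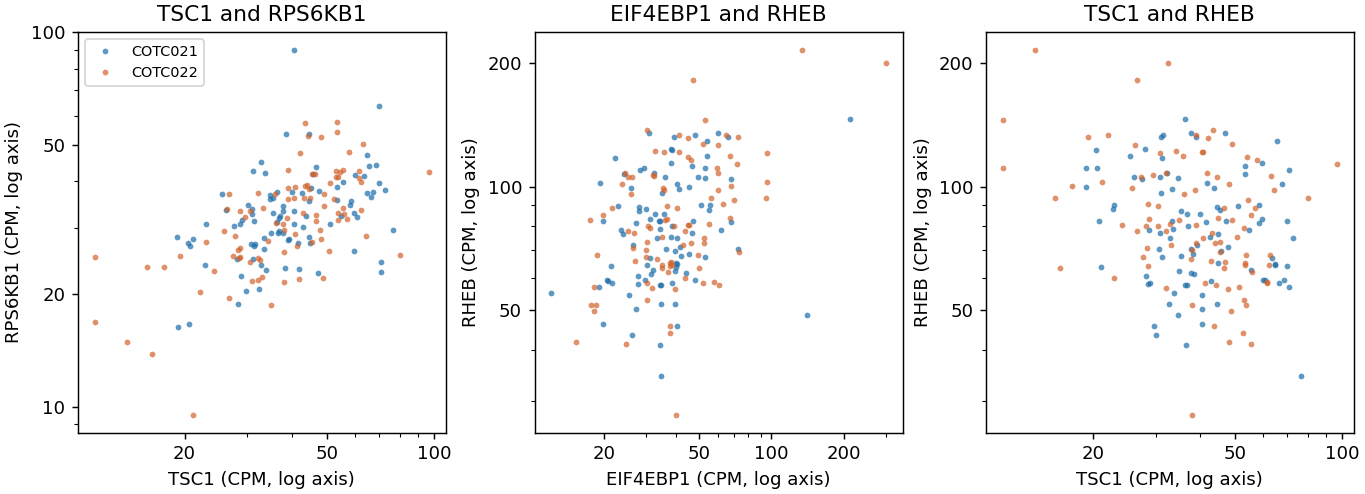
Levels in CPM (both axes on log scales) of TSC1 and RPS6KB1, of EIF4EBP1 and RHEB, and of TSC1 and RHEB, with 1 point per dog and the trial as color. Both trials spread along the same rising trend in the first 2 panels and along a falling trend in the third.

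To place these values, the same correlation was taken for all tested genes on shared chromosomes, as a description with no test, since genes of 1 tumor share a library and depth. Gene pairs with starts 10 to 20 Mb apart had a median r of 0.07 over all chromosomes, 0.05 on chromosome 9 and 0.19 on chromosome 16. An r of at least 0.45, that of EIF4EBP1 and RHEB, was reached by 2.19% of such pairs on chromosome 9 and by 6.99% of those on chromosome 16. Pairs within 2 Mb had a median r of 0.16 over all chromosomes and 0.24 on chromosome 16. Chromosome 16 therefore carried higher correlations between its genes than the genome in general at every distance examined.

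For 6 of the 9 genes, most of the genes most like them across dogs lay on the same chromosome, though not always near. Of the 20 genes with the highest r, 19 lay on the same chromosome for TSC1, 19 for RHEB, 18 for RPS6KB1, 18 for AKT1, 17 for EIF4EBP1, 11 for TSC2, 9 for MTOR, 8 for RPTOR and 2 for RICTOR. These chromosomes hold between 1.88% (chromosome 16) and 6.06% (chromosome 9) of the genes tested. The genes were picked for their r out of 13422, so the values that follow are a description with no test.

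For the kinase complexes, the genes most like MTOR were EXOSC10, its immediate neighbor and a subunit of the RNA exosome (r = 0.64), UBR4, a ubiquitin ligase also on chromosome 2 (r = 0.59), and KMT2D, a histone methyltransferase on chromosome 27 (r = 0.58). For RPTOR they were POLR1A, the large subunit of RNA polymerase I (r = 0.62), POM121C, a nuclear pore gene (r = 0.62), and NPLOC4 on its own chromosome (r = 0.61). For RICTOR they were NIPBL, the cohesin loader, on its chromosome (r = 0.53), MPP5 (r = 0.53) and DGKH (r = 0.52) on others. MTOR, RPTOR and RICTOR thus shared the fewest of their closest genes with their own chromosome.

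For the TSC genes, TSC1 was most like GTF3C4, a subunit of a transcription factor of RNA polymerase III (r = 0.73), PRRC2B (r = 0.69) and BPTF, a chromatin remodeling gene (r = 0.66), all on chromosome 9. TSC2 was most like SRRM2, a splicing factor gene (r = 0.58), GTF3C1 (r = 0.55) and SH2B1 (r = 0.52), all on chromosome 6. RHEB was most like FNTA (r = 0.66), which encodes the alpha subunit of farnesyltransferase, the enzyme that attaches a lipid to RHEB. STMP1 (r = 0.63) and LUZP6 (r = 0.61) followed, and all of them lie on chromosome 16.

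For the remaining members, AKT1 was most like PACS2 (r = 0.70), CDCA4 (r = 0.65) and KLC1 (r = 0.62), which lie within 1 Mb of it on chromosome 8. RPS6KB1 was most like MED13, a Mediator kinase module gene (r = 0.57), HEATR6 (r = 0.54) and TAOK1 (r = 0.54), all on chromosome 9. EIF4EBP1 was most like LSM1, an RNA decay gene less than 0.1 Mb away (r = 0.60), FNTA (r = 0.59) and FASTK (r = 0.52), all on chromosome 16. FNTA was therefore among the 3 closest genes of both RHEB and EIF4EBP1.

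Correlation with neighbors extended beyond single genes. Within 2 Mb, 41 of 43 tested genes were positively correlated with TSC1, 48 of 50 with RHEB, 19 of 20 with EIF4EBP1, 36 of 42 with RPS6KB1, 38 of 48 with AKT1, 97 of 117 with TSC2, 53 of 79 with RPTOR, 20 of 27 with MTOR and 14 of 17 with RICTOR. The median r of these neighbors ran from 0.14 for MTOR to 0.28 for RPS6KB1, against medians of -0.01 to 0.01 over all genes. On the rest of the chromosome it was lower, between 0.07 and 0.13, for 8 of the 9 genes. For RHEB the rest of chromosome 16 had a higher median r (0.30) than the 2 Mb around it (0.23). The plot of neighbors by distance shows the peak around AKT1 and EIF4EBP1 and the broad band around RHEB.

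**Figure D5:**
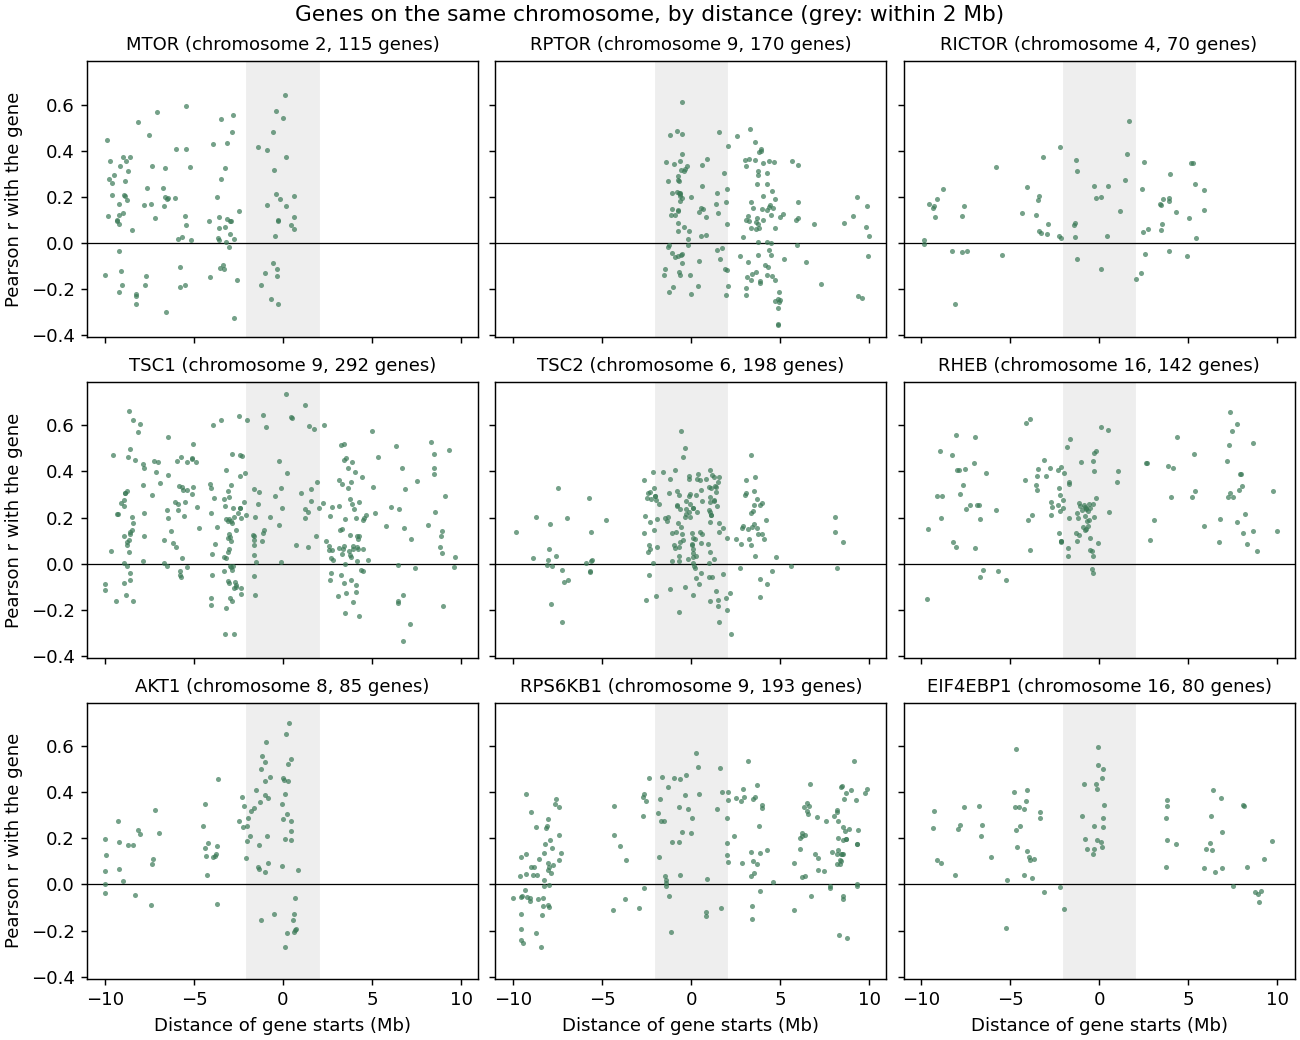
Pearson r over 186 dogs between each mTOR pathway gene and the tested genes of its chromosome whose starts lie within 10 Mb (y axis), against the distance between starts in Mb (x axis), 1 point per gene, with the 2 Mb on either side in grey. Points lie mostly above 0 near each gene, reach 0.70 beside AKT1 and 0.73 beside TSC1, and stay above 0 far from RHEB.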

How the data were processed

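Poly(A)-selected, stranded RNA libraries (TruSeq Stranded mRNA) from 186 frozen tumors were sequenced as paired reads. Per the methods of the study and the submitters' processing notes, the authors trimmed reads with Cutadapt, aligned them to CanFam4 with STAR 2.7.0f and deposited RSEM 1.3.1 expected counts per gene. Of 198 columns 186 matched a labelled sample, and the other 12 were not used. The deposited expected counts, of which 3.07% were not whole, were rounded.

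Genes were kept by filterByExpr of edgeR 4.0.16 (a minimum count of 10, a minimum proportion of 0.5 and a large-group size of 5). TMM-normalized counts were tested with limma 3.58.1 (voom, Benjamini-Hochberg over all genes, called at an adjusted p under 0.05). Scores are means of standardized log2(quantile-normalized CPM + 2), in units of 1 SD. CPM in the text is by library total. Alternatives were the edgeR quasi-likelihood test, DESeq2 1.42.0, upper quartile factors, no filter, further covariates and subsets of dogs. Correlations used TMM-normalized log2 CPM. The fits were checked on simulated data. Gene positions are from RefSeq (UU_Cfam_GSD_1.0); 13422 of the tested genes had one. Read totals limit precision through counting error, and other effects of depth were not tested. The dogs are separate animals, no 2 libraries agreed within sampling noise (highest r 0.95), and no replicate numbers are shared between the trials.

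Named genes were the 9 members, the 3 genes most like each (LOC names left out), and the 4 other pathway genes with the largest called slope per score, 1 of which is not reported here. The lists hold 9 complex subunits, 26 genes of amino acid sensing, 7 of energy and stress, 18 of PI3K signaling and 22 effectors, and markers of osteoblasts, osteoclasts (8), endothelium (8), cartilage (7), skeletal muscle and fat (5). Members and lists were chosen with earlier results of these data known. Cluster membership and outcome of the dogs were not analysed here.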

Additional observations from a re-analysis of the deposited data

How the results depend on the processing

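All 36 called results (15 slopes and differences of the 9 genes and 21 pairs) kept their direction in every alternative run, and 17 of them, all pairs, were called in every one; 52 values fell short of the threshold under an alternative and 10 passed it. The estimates that changed sign were all of results not called in the fits of the report; among them the 2 genes RPTOR and RICTOR, with CPM by library total, were correlated past the threshold. No setting moved the median log2 change of all genes by over 0.1. Counting error limits little here, since each gene had at least 99 counts in each library. The subsets hold fewer dogs, and most gave fewer calls. In the other libraries, though, 8 genes differed between the trials, against 2 in all dogs. The part of subset size in this was not tested. No paired analysis was possible because the trials share no dog numbers. The cause of the other differences was not tested.

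With the edgeR quasi-likelihood test the trials differed for 129 genes, and slopes changed sign for EIF4EBP1 on proliferation (0.017), AKT1 on osteoblast (-0.0059) and RICTOR on muscle (-0.0088), as did AKT1 between libraries (0.026). DESeq2 gave 71 genes and 0.0149, -0.00737 and -0.00704 for the same 3 slopes. Of the genes called on muscle 74.6% were higher, against 57.8% with edgeR and 50.6% with DESeq2. Upper quartile factors gave 4 genes between the trials, 1 of the 9 genes falling with osteoblast and TSC1 at 0.0032. Without the filter 13576 genes in place of 5097 were called on osteoblast (25.8% of them higher, against 48.3%) and 1715 in place of 1137 on muscle, with TSC2 at 0.0092 on proliferation and RICTOR at -0.00749 on muscle. With the library name as covariate MTOR had 0.0020 on muscle, and with TMM-based scores RICTOR had -0.0080.

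In the 50 repeated-separator libraries no gene differed between the trials (831 had an unadjusted p under 0.05 by limma-voom), with TSC2 at -0.044 and EIF4EBP1 at -0.062. The scores had 3274 genes (GS-1), 3154 (proliferation), 2406 (osteoblast) and 313 (muscle), with 0 of the 9 higher on all 4 and 0 lower on GS-1 and osteoblast. TSC1 had 0.069 on GS-1, TSC2 0.056 and RPS6KB1 -0.079 on proliferation and RICTOR -0.022 on muscle. In the other libraries 8 genes differed by trial (RPS6KB1 0.013), 1 of the 9 fell with osteoblast, and 384 genes were called on muscle, with EIF4EBP1 at 0.033 on GS-1 and MTOR at 0.021 on muscle.

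In COTC021 alone 3512 genes were called on GS-1 (0 of the 9 higher, 1 lower, RPS6KB1 -0.030), 2964 on osteoblast (1 higher, 0 lower, EIF4EBP1 0.035) and 179 on muscle (0 of the 9), and none of the 9 rose with proliferation (0; RICTOR 0.041, EIF4EBP1 0.033). In COTC022 alone 4627 were called on proliferation (1 of the 9 higher, 0 lower, TSC2 0.023, RPS6KB1 -0.017) and 2876 on osteoblast (1 lower, TSC1 0.0088), 0 of the 9 rose with muscle (MTOR 0.000503, RICTOR -0.00147), and on GS-1 TSC1 had 0.0052 and EIF4EBP1 0.014. With the other scores as covariates 0 of the 9 were called on GS-1 in either direction (RPS6KB1 -0.0043) and 1 fell with osteoblast (AKT1 -0.0068), 730 genes were called on muscle (MTOR 0.017, RICTOR -0.000394), and EIF4EBP1 had 0.015 on proliferation. Residuals after all scores gave r of -0.0054 for MTOR and AKT1, 0.016 for RPTOR and EIF4EBP1, 0.051 for TSC2 and RPS6KB1 and 0.059 for AKT1 and RHEB. CPM by library total gave 0.18 for RPTOR and RICTOR, 0.0059 for TSC1 and AKT1, 0.11 for TSC2 and RPS6KB1 and 0.050 for TSC2 and AKT1.

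Further alternatives were chosen after seeing the data. Without the 2 dogs farthest from the median of each score 1 of the 9 fell with osteoblast (TSC1 0.012) and 0 rose with muscle (RICTOR -0.00990), with EIF4EBP1 at 0.022 on GS-1 and RICTOR 0.020, TSC2 0.011 and RPS6KB1 -0.0040 on proliferation. Without dogs 0309 and 2010, 2 of the 9 rose with muscle, RPS6KB1 had -0.00030 on proliferation and EIF4EBP1 differed by 0.018 between libraries. Between the sets of libraries 146 genes differed within COTC021 (0 of the 9; EIF4EBP1 0.16, AKT1 0.15) and 89 within COTC022 (0 of the 9), in place of 573.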

Other observations

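The tumors at the top of the range of AKT1 and EIF4EBP1 were looked at with the genes around them, a step chosen after their values were seen and given without a test. In dog 2010 of COTC022, which had the highest EIF4EBP1 (300.0 CPM), 16 of the 20 tested genes within 2 Mb also had their highest level of all 186 dogs, and 19 were among their 10 highest dogs. They included FGFR1, a receptor tyrosine kinase, NSD3 and ASH2L, which encode a histone methyltransferase and a subunit of one, and LSM1. Over all 13422 genes, 7.38% were among their 10 highest dogs in this tumor. In dogs 0513 and 1009 of COTC021, the next highest in EIF4EBP1, 11 of the 20 neighbors were among their 10 highest dogs in each, against 3.00% and 15.5% of all genes. Without dog 2010 the median r of EIF4EBP1 with its neighbors was 0.19 in place of 0.27.

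In dog 0309 of COTC021, with the highest AKT1 (1735 CPM), 32 of the 48 tested genes within 2 Mb were among their 10 highest dogs and 17 were at their highest of all dogs, among them XRCC3, a DNA repair gene, TRAF3, an adaptor of receptor signaling, and MTA1. This tumor held the highest value of 51 genes in all, and 3.39% of all genes were among their 10 highest dogs in it. Dog 2321 of COTC021, with 1120 CPM of AKT1, had 29 of the 48 among their 10 highest dogs, against 8.37% of all genes. Dog 0228 of COTC022, with 1285 CPM, had 10 of the 48, against 7.52%. The dogs with the highest AKT1 thus differed in how much of the neighborhood was high with it. In the dog with the highest normalized level of each of the other 7 genes, the neighbors within 2 Mb that were among their 10 highest dogs were 11 of 27 for MTOR, 19 of 79 for RPTOR, 5 of 17 for RICTOR, 5 of 43 for TSC1, 22 of 117 for TSC2, 10 of 42 for RPS6KB1 and 7 of 50 for RHEB. Between 1 and 4 of these neighbors were at their highest of all dogs. For RPTOR the dog was 1009 of COTC021, in which 15.5% of all genes were among their 10 highest dogs. For RPS6KB1 it was dog 0309, with 3.39% of all genes. This share was not taken in the dogs of the other genes, so how far their counts exceed it was not tested.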
